A study of Homo sapiens with 48 samples.

Results

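A set of 84 genes was described by RNAseq. They were well expressed in parental PSN1 cells and far lower in both PSN1 populations selected for Talazoparib resistance. PSN1 is a human pancreatic ductal adenocarcinoma line. Talazoparib is a PARP inhibitor, which blocks the catalytic activity of PARP1 and holds the protein on damaged DNA. The 84 genes were chosen by measured values: a parental mean of at least 4 log2 CPM (16 CPM, where CPM is a gene's read count scaled to the size of its library), a parental mean at least 2 log2 units (4-fold) above the mean of TalaR-M replicates 1 and 3, and at least 2 log2 units above the TalaR-DF mean. They are 84 of 20241 genes listed, of 12471 genes tested and of 8154 genes that met the parental minimum. Among the latter, 138 genes were at least 4-fold lower in TalaR-M cells and 145 after drug withdrawal, so the set holds 60.9% of the first and 57.9% of the second. Both comparisons share the parental libraries.

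The PSN1 cells formed 3 groups, with 3 libraries each. Parental cells received no drug. TalaR-M cells were selected with increasing Talazoparib, for 4 months by the sample labels, and were kept in 50 nM Talazoparib. TalaR-DF cells came from the same selection and were then cultured without drug, for 4 weeks by the study's text. The study reports that PSN1 cells had by then regained nearly the parental sensitivity to Talazoparib. Below, the word resistant names both selected populations by their origin, and not by their sensitivity at harvest. No gene was edited in any group. Each resistant population is 1 selected population, so that its 3 libraries do not sample independent selections, and the labels do not say whether replicates came from separate cultures. The p-values below therefore measure only the spread between these libraries. The deposited values are log2 CPM with everything under 0 set to 0, so that a value of 0 stands for at most 1 CPM. In bulk RNAseq, fewer cells that express a gene and less of its RNA per cell cannot be told apart.

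Libraries held between 8387755 and 14973847 reads on genes above 1 CPM, and 1 CPM corresponded to between 6.97 and 14.54 reads. TalaR-M replicate 2 stood apart before any result was drawn. It had the fewest reads, correlated with the other TalaR-M libraries at r of only 0.78 across 10512 genes, against at least 0.9928 between any other replicates of a group, and 4858 genes in it lay over 2-fold from the mean of the other TalaR-M libraries, against at most 11 in any parental or TalaR-DF library. Its deviation moved with transcript length, from a median of 1.42 log2 units in the tenth of genes with the shortest transcripts to -1.45 in the tenth with the longest. The choice of the 84 genes left this library out, and the comparison of TalaR-M with TalaR-DF cells is given with and without it.

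Pancreatic tumour cells of ductal origin make mucins and other secretory proteins, and lines of this tumour also make collagens, protease inhibitors and growth factors that in the tissue come largely from stroma. Cytokines such as IL33 and IL1B, peptide hormones and their processing enzymes, and adhesion receptors for the matrix are part of the same secreted and surface repertoire. Many of the 84 genes belong to it. A smaller share codes for enzymes, synaptic and ion channel proteins, and transcription factors.

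The reference table held a promoter for 55 of the 84 genes (65.5%), which is too few to compare promoter properties of the set with those of other genes, and that check is void. For the members with the highest parental levels that had an entry, the 250 bases before the annotated start are shown, because the E-box CAGGTG is the core recognised by SNAI2, the factor the study followed. Sequences come from RefSeq GRCh38.p14 and run 5′ to 3′ along the gene's strand. Capitals mark CAGGTG read on either strand (CACCTG is its reverse complement) and the TATA box TATAAA on either strand.
TIMP1, chrX:47582186-47582435, plus strand: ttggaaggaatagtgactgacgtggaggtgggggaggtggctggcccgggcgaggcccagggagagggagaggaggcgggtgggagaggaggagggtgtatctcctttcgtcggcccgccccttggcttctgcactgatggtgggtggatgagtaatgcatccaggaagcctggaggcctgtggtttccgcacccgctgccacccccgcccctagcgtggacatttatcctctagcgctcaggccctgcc
IGFBP5, chr2:216695550-216695799, minus strand: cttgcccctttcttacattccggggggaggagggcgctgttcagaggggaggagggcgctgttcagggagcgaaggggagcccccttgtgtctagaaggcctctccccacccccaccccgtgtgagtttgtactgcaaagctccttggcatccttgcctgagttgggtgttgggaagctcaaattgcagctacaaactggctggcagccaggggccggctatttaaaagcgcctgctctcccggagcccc
CHI3L1, chr1:203186705-203186954, minus strand: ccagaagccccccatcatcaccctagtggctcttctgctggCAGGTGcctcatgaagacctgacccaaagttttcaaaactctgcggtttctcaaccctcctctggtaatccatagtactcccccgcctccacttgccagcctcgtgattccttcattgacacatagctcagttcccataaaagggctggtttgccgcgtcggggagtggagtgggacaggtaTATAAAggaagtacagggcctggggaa
CPE, chr4:165378758-165379007, plus strand: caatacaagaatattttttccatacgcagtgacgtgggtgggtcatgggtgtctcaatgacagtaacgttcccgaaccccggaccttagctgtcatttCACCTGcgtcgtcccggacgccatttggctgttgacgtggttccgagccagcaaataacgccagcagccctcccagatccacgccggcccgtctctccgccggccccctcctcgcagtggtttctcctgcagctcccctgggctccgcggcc
ITGA5, chr12:54419267-54419516, minus strand: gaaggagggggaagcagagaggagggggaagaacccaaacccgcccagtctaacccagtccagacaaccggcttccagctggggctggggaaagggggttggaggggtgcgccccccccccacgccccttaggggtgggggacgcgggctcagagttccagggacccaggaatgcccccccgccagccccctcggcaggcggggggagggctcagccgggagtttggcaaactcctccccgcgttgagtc
CHI3L1 held 1 CAGGTG and 1 TATAAA, CPE held 1 CAGGTG, and none of these letters was found in the windows of TIMP1, IGFBP5 and ITGA5. Of all 10149 genes tested with an entry, 15.5% had CAGGTG, 5.27% had TATAAA and 3.79% had the AP-1 motif TGANTCA in the window. The other members with CAGGTG were ADAM8 with 2 copies, and BHLHE41, NDUFA4L2, PLCL2 and VASN with 1 each. In all, 7 of the 55 members with an entry had CAGGTG (12.7%), and with the check void no enrichment is read from these examples. A match in these letters is a description of the window and not a measured binding site.

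The members' parental means lay between 4.06 and 11.29 log2 CPM with a median of 5.43. The 3 parental libraries were close to each other, with a median SD of 0.06 and a highest SD of 0.23. The median fall from parental cells was 3.59 log2 units in TalaR-M replicates 1 and 3 and 3.29 in TalaR-DF cells, while the other 8070 genes above the parental minimum had medians of 0.03 and -0.04. These values chose the members and are a description. By the limma call used below, all 84 were lower than parental in TalaR-M (background 7.72% of all genes tested) and all 84 in TalaR-DF (background 7.49%), which the choice of members fixes. The first count was also 84 without TalaR-M replicate 2 (background 7.07%). Summed over the set, the members took between 11495 and 11953 CPM in the parental libraries, 1525, 2509 and 1388 CPM in TalaR-M replicates 1, 2 and 3, and between 1436 and 1603 CPM in the TalaR-DF libraries. TIMP1 alone made much of the difference of TalaR-M replicate 2. Without TIMP1 the sums were 9066 to 9320 CPM in parental, 879 to 1086 in TalaR-M and 960 to 1023 in TalaR-DF libraries.

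**Figure D1:**
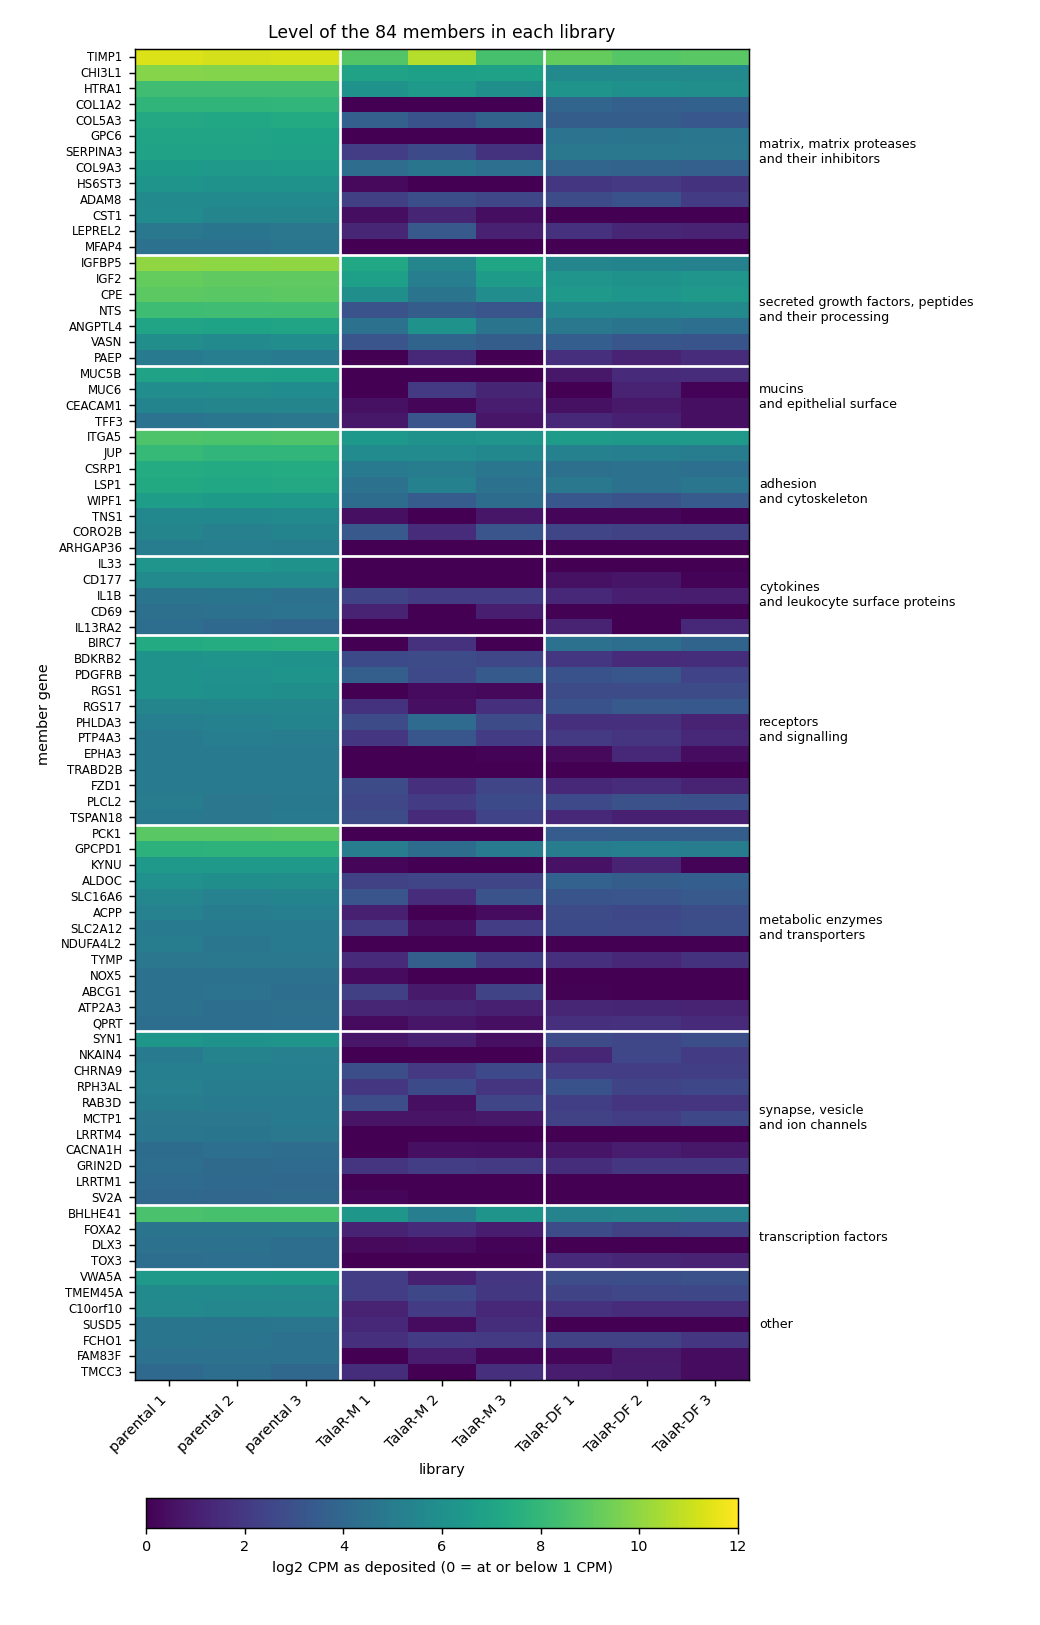
Deposited log2 CPM of the 84 members (rows, grouped by role and ordered by parental mean) in the 9 libraries (columns). Colour runs from 0, at or below 1 CPM, to 12. Each member is brighter in the 3 parental columns than in the 6 resistant ones, and 7 are at 0 in all 6 resistant libraries.

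"Lost" holds literally for few of them. The level was above 0 in both resistant populations for 63 members, 0 in all TalaR-M libraries that chose the members but not in TalaR-DF cells for 9, 0 in TalaR-DF cells alone for 5, and 0 in both for 7. A population counted as above 0 when at least 1 of its libraries that chose the members was, however slightly. BIRC7, at 0 and 0.0002 in TalaR-M replicates 1 and 3, is thus among the 63. The 7 at 0 in both were IL33, ARHGAP36, TRABD2B, NDUFA4L2, LRRTM4, MFAP4 and LRRTM1, and they were at 0 in TalaR-M replicate 2 as well. In total 15 members were at 0 in all 3 TalaR-M libraries. The fall reached 4 log2 units (16-fold) in both populations for 22 members and stayed under 3 in both for 18. Genes that every cell uses, such as the mitochondrial ribosomal protein gene MRPS24, are also listed at 0 in this file, so a 0 says that a gene is listed at 0 and not that it is silent.

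A matrix group, drawn broadly, made up 13 members. They code for matrix and other secreted proteins, a proteoglycan, enzymes that modify such proteins, proteases and protease inhibitors. TIMP1, an inhibitor of matrix metalloproteinases on the X chromosome (chrX:47582408-47586789, plus strand), had the highest parental level of the set, also per kilobase of transcript (11.67 log2 CPM per kb). Its deposited level was 11.36, 11.25 and 11.26 log2 CPM in the parental libraries, 8.78, 10.67 and 8.52 in TalaR-M replicates 1, 2 and 3, and 9.18, 8.85 and 8.95 in the TalaR-DF libraries. The groups did not overlap with parental cells, although TalaR-M replicate 2 lay only 0.62 log2 units below the parental mean. The secreted chitinase-like protein gene CHI3L1 had 9.81, 9.78 and 9.75 log2 CPM in parental, 6.93, 6.75 and 6.89 in TalaR-M, and 5.72, 5.68 and 5.69 in TalaR-DF libraries. All TalaR-M libraries lay above all TalaR-DF libraries, and none came near parental cells. HTRA1, a secreted serine protease, went from a parental mean of 8.31 log2 CPM to 6.05 in both TalaR-M replicates 1 and 3 and TalaR-DF cells.

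COL1A2, the alpha 2 chain of type I collagen (chr7:94394895-94431227, plus strand), had 7.86, 7.86 and 7.88 log2 CPM in parental libraries. It was at 0 in all 3 TalaR-M libraries, at least 233-fold lower, and at 3.90, 3.67 and 3.74 in the TalaR-DF libraries. Its partner COL1A1, the alpha 1 chain of the same collagen and no member, followed another course, and was looked up after the values of COL1A2 were seen. COL1A1 had 6.51, 6.45 and 6.55 log2 CPM in parental, 8.61, 8.13 and 8.67 in TalaR-M, and 3.67, 3.96 and 3.83 in TalaR-DF libraries. Against parental cells it was called higher in TalaR-M and lower in TalaR-DF. Of 25 collagen chain genes tested, 3 were members, with COL5A3 going from 7.26 to 3.74 in TalaR-M replicates 1 and 3 and to 3.44 in TalaR-DF cells, and COL9A3 from 6.54 to 4.32 and 3.81. Of the 25, 6 were called lower in TalaR-M, these 3 among them, and 1 higher (5 and 4 without replicate 2). In TalaR-DF cells 7 were called lower and 0 higher. Over all genes tested, 5.53% were called higher in TalaR-M (6.78% without replicate 2) and 2.25% in TalaR-DF cells, beside the 7.72% and 7.49% called lower, and these shares are the background for the lists below too.

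GPC6, a cell surface heparan sulfate proteoglycan, had a parental mean of 6.98 log2 CPM, was at 0 in all 3 TalaR-M libraries, at least 127-fold lower, and had 4.57, 4.62 and 4.69 in TalaR-DF libraries. HS6ST3, a sulfotransferase that modifies heparan sulfate, went from 6.16 to 0.14 in TalaR-M replicates 1 and 3 and 1.88 in TalaR-DF cells. SERPINA3, a serine protease inhibitor of the acute phase, had parental values of 6.90, 6.92 and 6.85, TalaR-M values of 2.18, 2.72 and 1.74, and TalaR-DF values of 4.82, 4.78 and 4.75. For these genes, as for COL1A2, TalaR-DF libraries lay between the other groups without overlap. The remaining matrix members were ADAM8, LEPREL2 (a collagen prolyl hydroxylase, now P3H3), the microfibril protein gene MFAP4 and the cystatin CST1, with parental means between 4.59 and 5.72. Of 40 genes for metalloproteinases, TIMPs, ADAMTS proteins and serpins tested, 2 were members (TIMP1 and SERPINA3). In TalaR-M, 11 of the 40 were called lower and 8 higher (12 and 10 without replicate 2), and after drug withdrawal 13 lower and 3 higher. TIMP2, a relative of TIMP1, was at 5.89 to 6.01 in parental, 6.84 to 7.40 in TalaR-M and 5.6 to 5.75 in TalaR-DF libraries, and was called higher in TalaR-M when set against parental cells.

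Secreted growth factors, peptides and proteins that act on them made up 7 members. IGFBP5, which binds insulin-like growth factors, had 10.01, 9.95 and 10.0 log2 CPM in parental, 7.22, 5.45 and 7.07 in TalaR-M, and 5.48, 5.40 and 5.28 in TalaR-DF libraries. TalaR-M replicate 2 lay within the range of the TalaR-DF libraries, and the other TalaR-M libraries lay above it. IGF2, a growth factor that IGFBP5 can bind, had 9.14, 9.05 and 9.05 log2 CPM in parental, 6.77, 5.15 and 6.64 in TalaR-M, and 6.25, 6.18 and 6.28 in TalaR-DF libraries. Of its receptors, IGF1R had parental values of 7.04 to 7.13, 5.94, 4.66 and 6.06 in TalaR-M and 6.66 to 6.85 in TalaR-DF libraries, and IGF2R stayed between 7.81 and 8.15 in all libraries but TalaR-M replicate 2, where it had 5.53.

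NTS, the precursor of neurotensin, had 8.29, 8.32 and 8.34 log2 CPM in parental, 3.08, 3.52 and 3.14 in TalaR-M, and 5.59, 5.58 and 5.72 in TalaR-DF libraries. TalaR-DF libraries lay between the other groups, about as far from either. NTSR1, the neurotensin receptor, was no member, and moved less. It had 7.44 to 7.56 in parental, 5.29 to 5.94 in TalaR-M and 6.30 to 6.49 in TalaR-DF libraries, and was called lower than in parental cells in both. CPE, a carboxypeptidase that trims peptide hormone precursors, had 8.98, 8.94 and 8.96 log2 CPM in parental, 6.0, 4.61 and 5.88 in TalaR-M, and 6.46, 6.32 and 6.49 in TalaR-DF libraries. The lipase inhibitor and secreted factor ANGPTL4 went from 7.0 to 4.57 in TalaR-M replicates 1 and 3 and 4.61 in TalaR-DF cells but had 6.19 in TalaR-M replicate 2. PAEP, the secreted protein glycodelin, and VASN, a membrane protein that binds TGF-beta, had parental means of 5.0 and 5.84 log2 CPM.

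**Figure D2:**
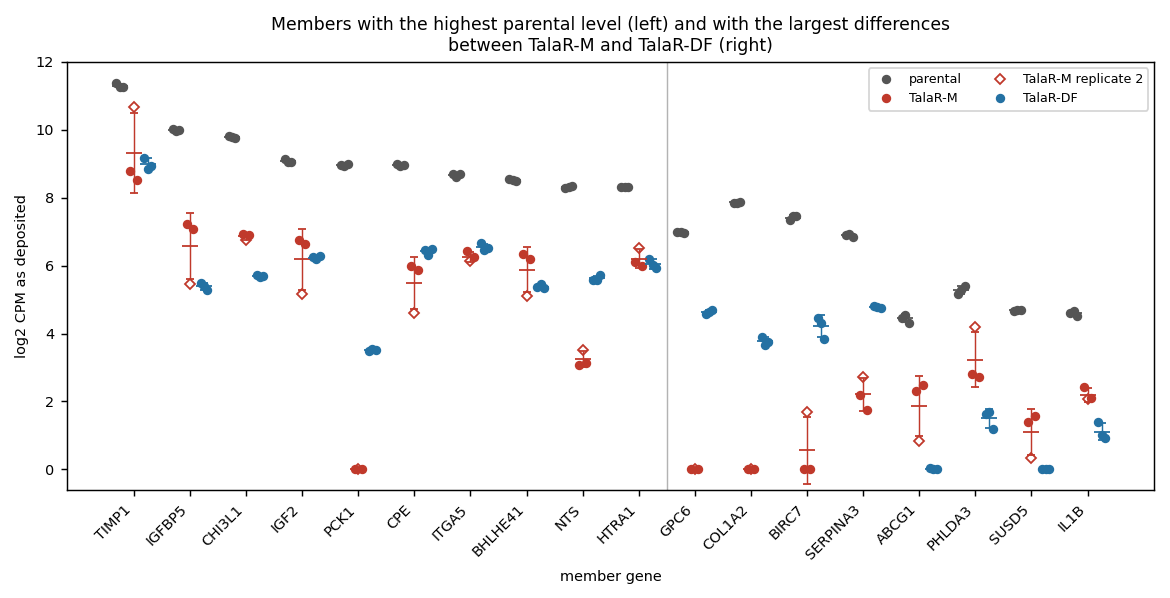
Deposited log2 CPM (vertical axis) of the 10 members with the highest parental mean and of 8 further members with the largest differences between TalaR-M and TalaR-DF cells. Points are libraries, bars are the mean and SD of 3, and open diamonds are TalaR-M replicate 2, which lies apart from the other TalaR-M libraries for TIMP1, IGFBP5 and IGF2 but not for PCK1, GPC6 and COL1A2.

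Mucins and proteins of the epithelial surface made up 4 members, with median falls of 4.98 log2 units in TalaR-M replicates 1 and 3 and 5.13 in TalaR-DF cells. MUC5B, a gel-forming mucin, had 6.90, 6.86 and 6.77 log2 CPM in parental libraries, 0 in all 3 TalaR-M libraries and 0.79, 1.43 and 1.51 in TalaR-DF libraries. MUC6, another gel-forming mucin, had 5.88, 5.92 and 5.83 in parental, 0, 2.02 and 1.23 in TalaR-M, and 0, 1.17 and 0.14 in TalaR-DF libraries. The resistant groups overlapped for MUC6 and were both far below parental cells. TFF3, a trefoil peptide secreted with mucins, went from 4.67 to 0.75 in TalaR-M replicates 1 and 3 and 0.98 in TalaR-DF cells, with 3.14 in TalaR-M replicate 2. CEACAM1, an adhesion molecule of epithelia and leukocytes, went from 5.44 to 0.75 and 0.61. Genes with close relatives, such as CEACAM1, CST1 and the mucins, could share reads with them in a way that depends on the authors' counting, which is not given in the sources used here.

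A group of 8 members belongs to adhesion and the cytoskeleton. None of the 8 was called between TalaR-M and TalaR-DF cells by the test below, a count near the background share of 6.93%. ITGA5, the alpha subunit of the fibronectin receptor, had 8.69, 8.60 and 8.68 log2 CPM in parental, 6.42, 6.13 and 6.24 in TalaR-M, and 6.65, 6.45 and 6.5 in TalaR-DF libraries. It was the only member among 25 laminin and integrin genes tested, of which 6 were called lower and 0 higher in TalaR-M (6 and 1 without replicate 2), and 7 lower and 0 higher after drug withdrawal. Its beta subunit ITGB1 had 9.29 to 9.32 in parental, 9.25, 5.32 and 9.09 in TalaR-M and 8.85 to 9.01 in TalaR-DF libraries, and was not called in either comparison. JUP, plakoglobin of desmosomes and adherens junctions, went from 7.94 to 5.71 in TalaR-M replicates 1 and 3 and 5.19 in TalaR-DF cells. TNS1, a tensin of focal adhesions, showed a larger fall, from 5.65 to 0.61 and 0.15. The cytoskeletal genes CSRP1, LSP1, WIPF1 and CORO2B had parental means of 5.37 to 7.37, and ARHGAP36 was listed at 0 in every resistant library.

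There were 5 cytokines or leukocyte surface proteins among the members. IL33, a nuclear alarmin of the IL-1 family, had 6.26, 6.29 and 6.17 log2 CPM in parental libraries and 0 in all 6 resistant libraries, at least 75.6-fold lower. Its receptor gene IL1RL1, a non-member, had 1.13 to 1.49 in parental libraries and 0 in all 6 as well. IL1B, another IL-1 family cytokine, kept a low level: 4.61, 4.67 and 4.53 in parental, 2.44, 2.07 and 2.10 in TalaR-M, and 1.39, 1.03 and 0.92 in TalaR-DF libraries. IL13RA2, the decoy receptor for IL-13, had 4.35, 4.11 and 3.91 in parental libraries, 0 in all 3 TalaR-M libraries and 1.18, 0.03 and 1.33 in TalaR-DF libraries. Of the signalling receptors for IL-13, IL4R had 7.17 to 7.30 in parental, 4.46 to 4.71 in TalaR-M and 5.73 to 5.79 in TalaR-DF libraries and was called lower in both, while IL13RA1 was not called in either. CD69 and CD177, known from leukocytes, had parental means of 4.49 and 5.76. Of 77 cytokine, chemokine and interleukin genes tested, 3 were members. In TalaR-M, 19 of the 77 were called lower and 6 higher (21 and 11 without replicate 2), and after drug withdrawal 24 lower and 2 higher.

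There were 12 receptors or signalling proteins in the set. PDGFRB, a receptor for platelet-derived growth factors, had 6.19, 6.06 and 6.19 log2 CPM in parental, 3.62, 2.63 and 3.41 in TalaR-M, and 3.02, 3.20 and 2.40 in TalaR-DF libraries. The resistant groups overlapped. The related receptor PDGFRA had 6.11 to 6.17 in parental, 4.90, 3.69 and 4.94 in TalaR-M and 5.82 to 5.92 in TalaR-DF libraries. BDKRB2, a bradykinin receptor, went from 6.17 to 2.61 in TalaR-M replicates 1 and 3 and 1.66 in TalaR-DF cells, and the other bradykinin receptor, BDKRB1, had 1.90 to 2.14 in parental and 0 in all 6 resistant libraries. RGS1, which shortens G protein signals, had 6.15, 6.05 and 5.97 in parental, 0, 0.34 and 0.28 in TalaR-M, and 2.74, 2.77 and 2.80 in TalaR-DF libraries. RGS17, of the same family, had a parental mean of 5.5, 1.70 in TalaR-M replicates 1 and 3 and 3.23 in TalaR-DF cells. For these regulators the TalaR-DF libraries lay above all TalaR-M libraries, and for BDKRB2 the order was the opposite. Of 76 genes named for G protein-coupled receptors or RGS proteins, 4 were members (with the Wnt receptor FZD1). In TalaR-M, 21 of the 76 were called lower and 4 higher (20 and 7 without replicate 2), and after drug withdrawal 19 lower and 4 higher.

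BIRC7, an inhibitor of apoptosis also called livin, had 7.33, 7.45 and 7.46 log2 CPM in parental libraries, 0, 1.70 and 0.0002 in TalaR-M, and 4.46, 4.32 and 3.85 in TalaR-DF libraries. It was the only member among 42 apoptosis regulators tested. PHLDA3, a p53 target that restrains AKT, had 5.17, 5.27 and 5.40 in parental, 2.80, 4.18 and 2.73 in TalaR-M, and 1.63, 1.68 and 1.19 in TalaR-DF libraries. EPHA3, PLCL2, PTP4A3, TSPAN18 and TRABD2B completed this group with parental means between 4.84 and 5.04.

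Metabolic enzymes and transporters made up 13 members. PCK1, cytosolic phosphoenolpyruvate carboxykinase of gluconeogenesis (chr20:57561080-57568121, plus strand), had the largest fall in TalaR-M cells. It had 8.95, 8.94 and 8.99 log2 CPM in parental libraries, 0 in all 3 TalaR-M libraries, at least 498-fold lower, and 3.49, 3.54 and 3.52 in TalaR-DF libraries, 43.5-fold lower. PCK2, the mitochondrial enzyme, stood at 3.79 to 3.88 in parental, 4.19 to 4.78 in TalaR-M and 3.64 to 3.87 in TalaR-DF libraries and was not called. KYNU, kynureninase of tryptophan breakdown, had 6.51, 6.51 and 6.47 in parental, 0.21, 0 and 0 in TalaR-M, and 0.60, 1.13 and 0.14 in TalaR-DF libraries. QPRT, an enzyme on the route from that pathway to NAD, went from 4.35 to 0.44 in TalaR-M replicates 1 and 3 and 1.61 in TalaR-DF cells. The enzymes IDO1 and KMO, upstream of KYNU, were listed at 0 in all 9 libraries.

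ABCG1, a cholesterol exporter, had 4.47, 4.55 and 4.32 log2 CPM in parental, 2.30, 0.85 and 2.47 in TalaR-M, and 0.05, 0 and 0 in TalaR-DF libraries. The glycolytic aldolase ALDOC went from 6.0 to 2.43 in TalaR-M replicates 1 and 3 and 3.63 in TalaR-DF cells. NDUFA4L2, related to a respiratory chain subunit, and NOX5, an NADPH oxidase, had parental means of 4.89 and 4.50 and at most 0.36 in any resistant library. The glucose transporter SLC2A12 and the monocarboxylate transporter family member SLC16A6 were the only 2 members among 200 solute carriers tested, with parental means of 4.94 and 5.42. GPCPD1, ACPP (now ACP3), TYMP and the calcium pump ATP2A3 were the other members here.

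The next 11 members are best known from synapses, secretory vesicles or ion channels. SYN1, a synaptic vesicle phosphoprotein, had 6.33, 6.17 and 6.22 log2 CPM in parental, 0.74, 1.05 and 0.51 in TalaR-M, and 2.77, 2.56 and 2.86 in TalaR-DF libraries. TIMP1 lies within the SYN1 gene on the opposite strand, and whether the counting used strand is not given in the sources used here, so the values of this pair cannot be taken as independent. The postsynaptic adhesion proteins LRRTM4 and LRRTM1 had parental means of 4.74 and 4.12 and were at 0 in all 6 resistant libraries. SV2A, RPH3AL, RAB3D and MCTP1, which act in vesicle release, had parental means of 4.06 to 5.13. The channel genes CACNA1H, CHRNA9 and GRIN2D were 3 of 95 ion channel genes tested. CACNA1H, a T-type calcium channel, went from 4.31 to 0.22 in TalaR-M replicates 1 and 3 and 0.81 in TalaR-DF cells, and CHRNA9, a nicotinic receptor subunit, from 5.17 to 2.76 and 2.20.

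Transcription factors made up 4 members. BHLHE41, a repressor of the circadian clock, had 8.56, 8.52 and 8.49 log2 CPM in parental, 6.35, 5.11 and 6.19 in TalaR-M, and 5.36, 5.46 and 5.33 in TalaR-DF libraries. FOXA2, a factor of endoderm and pancreas, had 4.61, 4.63 and 4.67 in parental, 1.16, 1.45 and 0.89 in TalaR-M, and 2.81, 2.35 and 2.40 in TalaR-DF libraries. DLX3, a homeobox factor, had 4.52, 4.45 and 4.34 in parental libraries, at most 0.34 in TalaR-M and 0 in the 3 TalaR-DF libraries. TOX3 was at 4.35 to 4.37 in parental, 0 in TalaR-M and 1.19 to 1.43 in TalaR-DF libraries. The last 7 members, C10orf10 (now DEPP1), VWA5A, FAM83F, FCHO1, TMCC3, SUSD5 and TMEM45A, had parental means of 4.15 to 6.48 log2 CPM.

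Of 30 gene lists, 14 held no member, and 29 of the 84 members were in at least 1 list. Members were 0.674% of the genes tested, so nothing is read from a list that held none. The calls named above for partner genes in TalaR-M against parental cells were the same without TalaR-M replicate 2. Those in TalaR-DF cells were not compared without it.

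TalaR-M replicate 2 was not used to choose the members, and so measures their level again in 1 further library of the same population. Each fall is still taken from the parental mean, which did choose them, so the shares are not fully independent of the choice. In it, 73 of the 84 members (86.9%) were at least 4-fold below the parental mean, against 13.8% of the 8154 genes above the parental minimum. A further 9 members were between 2-fold and 4-fold lower, and 2 were less than 2-fold lower. Those 2 were TIMP1 and ANGPTL4, with falls of 0.62 and 0.81 log2 units and transcripts of 769 and 1872 bases. For all 84 members, each of the 3 TalaR-M libraries lay below each parental library. For replicates 1 and 3 this follows largely from the choice, and the share over other genes was not computed. The median fall of the members in this library was 3.92 log2 units, beside 0.54 for the other genes above the parental minimum. With the trend on transcript length and GC content removed from the library, 78 members were at least 4-fold lower (background 4.74% of 8115 genes with a transcript after the same correction), TIMP1 and ANGPTL4 now among them, while PHLDA3, PLCL2, WIPF1, FZD1, GRIN2D and ITGA5 lay under 4-fold, with falls from 1.46 to 1.99. That trend was measured against TalaR-M replicates 1 and 3, which chose the members, so the corrected count is not independent of the choice.

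**Figure D3:**
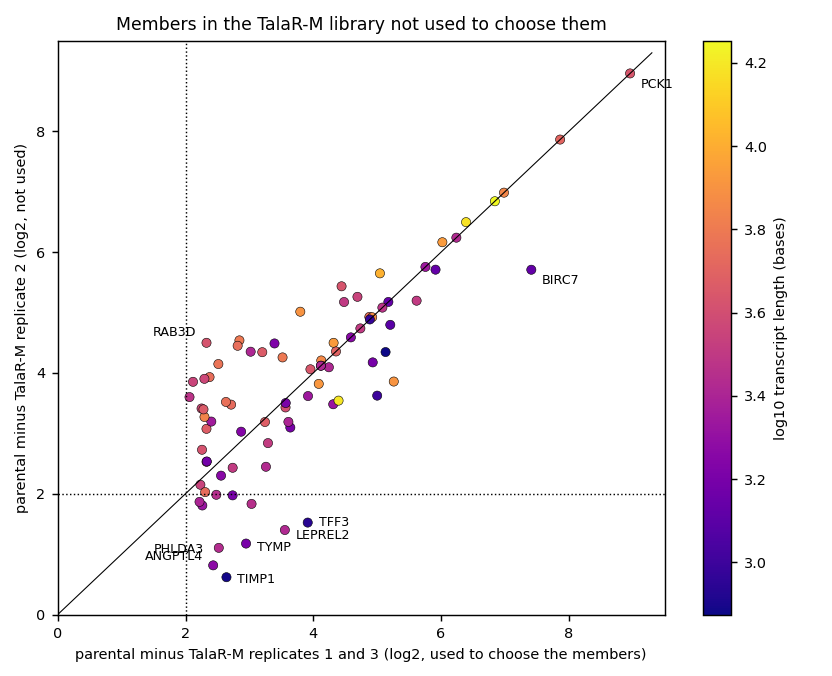
Fall of each member from the parental mean in TalaR-M replicates 1 and 3 (horizontal axis, log2 units) and in TalaR-M replicate 2 (vertical axis), coloured by transcript length. Dotted lines mark 4-fold, and 73 of 84 members lie above the horizontal one, with TIMP1 and ANGPTL4 lowest.

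The difference between the 2 resistant populations, with drug and after its withdrawal, was no criterion for the members. The same TalaR-DF and TalaR-M values did choose them, so the shares called below describe the set and are not independent evidence. Values were fitted with limma across all 12471 genes tested, and a gene was called at a Benjamini-Hochberg adjusted p under 0.05 with a difference of at least 1 log2 unit. Of the 84 members, 24 were called (28.6%), against 6.93% of all genes tested. Of these, 19 were lower in TalaR-M cells (22.6%, background 1.64%) and 5 were higher (5.95%, background 5.29%). Without TalaR-M replicate 2, 28 members were called (33.3%, background 8.36%), 19 of them lower in TalaR-M (background 1.4%) and 9 higher (background 6.96%), and 23 members were called both ways. The 3 TalaR-M and 3 TalaR-DF libraries did not overlap for 40 members (47.6%), against 40.8% of all genes tested. The difference was negative for 41 members, positive for 36 and exactly 0 for the 7 at 0 in all resistant libraries. These 7 hold the median at 0 log2 units (all genes tested -0.088). The median was -0.050 when that fit left out TalaR-M replicate 2 (all genes tested -0.016).

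The 5 largest differences with TalaR-M lower were those of GPC6, COL1A2, BIRC7, PCK1 and SERPINA3. By limma, TalaR-M minus TalaR-DF was -4.63 log2 units for GPC6 (SE 0.12, adjusted p = 1.08e-06), -3.77 for COL1A2 (SE 0.13, adjusted p = 2.02e-06) and -3.52 for PCK1 (SE 0.12, adjusted p = 2.02e-06). These 3 genes were at 0 in every TalaR-M library, so that the spread there is not measured and the differences are lower bounds at 1 CPM. They were the same without TalaR-M replicate 2. BIRC7 differed by -3.64 (SE 0.44, limma adjusted p = 0.00125), or -4.21 when TalaR-M replicate 2 was left out. SERPINA3 differed by -2.57 (SE 0.23, limma adjusted p = 0.000277), or -2.82 without that library. The other genes called lower in TalaR-M were RGS1, NTS, ACPP, NKAIN4, SYN1, RGS17, HS6ST3, MCTP1, FOXA2, TOX3, MUC5B, VWA5A, ALDOC and QPRT, with differences between -2.56 and -1.08. VWA5A was no longer called without TalaR-M replicate 2, where it differed by -0.86.

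The 5 members called higher in TalaR-M were ABCG1, PHLDA3, CHI3L1, SUSD5 and IL1B. ABCG1 differed by 1.855 log2 units (SE 0.38, limma adjusted p = 0.0173), or 2.37 when TalaR-M replicate 2 was left out. PHLDA3 differed by 1.73 (SE 0.37, limma adjusted p = 0.0204), a value that was 1.26 without that library, which held the highest TalaR-M value. The other differences were those of CHI3L1 at 1.16 (SE 0.11, limma adjusted p = 0.000333), SUSD5 at 1.10 (SE 0.29, limma adjusted p = 0.0446) and IL1B at 1.09 (SE 0.18, limma adjusted p = 0.00613). Without TalaR-M replicate 2 these 3 were 1.22, 1.49 and 1.16. With 1 library left out, 4 members were called higher without any 1 parental library, 3 without TalaR-M replicate 1 or TalaR-DF replicate 1, 2 without TalaR-DF replicate 2 and 1 without TalaR-DF replicate 3, while 18 or 19 were called lower each time. Calls over all genes tested moved as well, from 864 with every library to between 710 and 714 without a parental library. They were 1035 without TalaR-M replicate 1, and 627, 611 and 578 without TalaR-DF replicates 1, 2 and 3. ABCG1 and PHLDA3 lost their calls with any TalaR-DF library left out, IL1B without TalaR-M replicate 1 or TalaR-DF replicate 3, and SUSD5 with any library but TalaR-M replicate 2 left out. CHI3L1 was called each time. IGFBP5, the member with the second highest parental level, differed by 1.19 (SE 0.41, limma adjusted p = 0.101) and was not called, but without TalaR-M replicate 2 it differed by 1.76 (SE 0.07, limma adjusted p = 7.59e-09). CD69, FZD1 and TSPAN18 were likewise called higher, and PAEP lower, only without that library. For every one of the 24 called members, the TalaR-M and TalaR-DF libraries did not overlap (40.8% of all genes tested). The call rests on the same values, so this count is a description and adds no support.

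The other 60 members were not called, which does not show that they were alike in the 2 populations. HTRA1, for example, differed by -0.0005 (interval -0.17 to 0.17) and ITGA5 by -0.20 (interval -0.37 to -0.04) without that library.

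**Figure D4:**
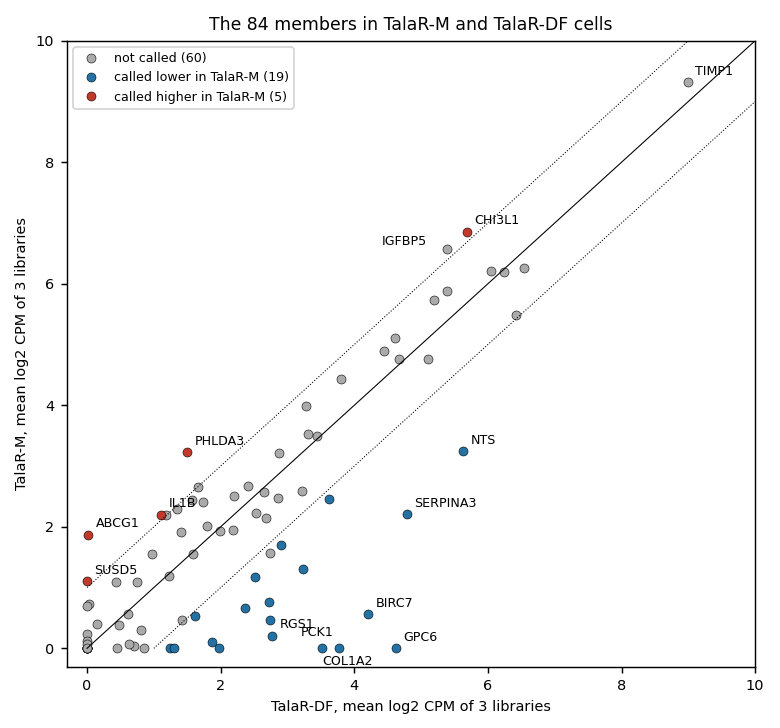
Mean log2 CPM of each member in the 3 TalaR-DF libraries (horizontal axis) and the 3 TalaR-M libraries (vertical axis). The solid line marks equal levels and the dotted lines 2-fold differences. The 19 members called lower in TalaR-M lie below the line, with GPC6, COL1A2 and PCK1 at 0 in TalaR-M cells, and the 5 called higher lie above it.

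The members were spread over the genome, with 7 each on chromosomes 2, 12, 17, 19 and 20. On chromosome 20 this was 1.99% of the genes tested there, against 0.674% over all chromosomes. Within 1 Mb of another member lay 17 members, in 7 groups, and 7 pairs, some of them further apart than 1 Mb, were next to each other in the order of the genes tested: PHLDA3 and CSRP1, CEACAM1 and CD177, LRRTM4 and LRRTM1, IGFBP5 and TNS1, BIRC7 and NKAIN4, ABCG1 and TFF3, and SYN1 and TIMP1. Positions come from GENCODE 44 on GRCh38, and the submitters' processing notes name hg38. Neighbours did not always move alike between the resistant populations. ABCG1 was higher in TalaR-M than in TalaR-DF cells, and TFF3, next to it, overlapped between them.

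The group with the most members was MUC6, MUC5B, LSP1 and IGF2 on chromosome 11 (chr11:1012823-2158391). Of the 13 genes tested in this stretch, the 9 others had a median difference from parental cells of -0.49 in TalaR-M replicates 1 and 3 and -0.58 in TalaR-DF cells. The mucin MUC5AC, between MUC6 and MUC5B, went from 7.60 to 6.38 and 6.25 log2 CPM, and PRR33, which overlaps LSP1, from 2.64 to 0.31 and 0.09. These 2 were the only others over 2-fold lower in both, and BRSK2 in the same stretch was 0.54 and 0.28 above parental cells. On chromosome 20 (chr20:62816244-63272694), COL9A3, BIRC7 and NKAIN4 lay among 8 genes tested. BIRC7 and NKAIN4, next to each other, were at 7.41 and 5.18 log2 CPM in parental cells, 0.0001 and 0 in TalaR-M replicates 1 and 3, and 4.21 and 1.97 in TalaR-DF cells, and both were called lower in TalaR-M. The 5 other genes there, from TCFL5 to YTHDF1, had medians of -0.39 and 0.04.

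**Figure D5:**
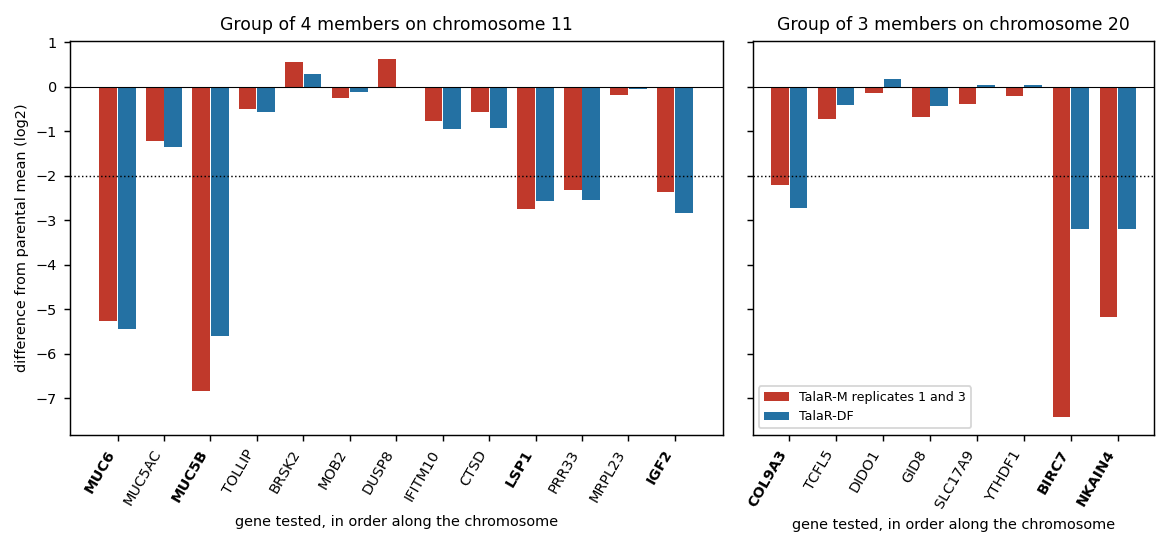
Difference from the parental mean (log2 units) for each gene tested, in order along the chromosome, in the chromosome 11 group of 4 members and the chromosome 20 group of 3 members (names in bold). The dotted line marks 4-fold lower, past which PRR33 also lies. MUC5AC is at -1.22 and -1.35, while BRSK2 and YTHDF1 lie near 0.

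Transcripts of the members had a median length of 3209 bases against 3417 over all genes tested, and a median GC content of 55.3% against 48.4%.

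Lists of cell type markers were read beside these results, since several members are known from fibroblasts, leukocytes or endothelium. Of 12 ductal epithelial markers, CDH1, a defining adhesion protein of epithelia, was at 0 in all 9 libraries, and the summed level of the list was 1267 to 1335 CPM in parental, 1852 to 5924 in TalaR-M and 1071 to 1214 in TalaR-DF libraries. Of 12 fibroblast markers, ACTA2, FAP, THY1 and PDPN were at 0 throughout, COL1A2 and PDGFRB are members, and the sum was 1815 to 1890, 1236 to 3462 and 1222 to 1295 CPM. The others went both ways. POSTN had 4.33 to 4.51 log2 CPM in parental, 5.77, 3.44 and 5.61 in TalaR-M, and 8.03 to 8.27 in TalaR-DF libraries. COL1A1 and DCN were higher than parental in every TalaR-M library, and COL3A1 in replicates 1 and 3. COL1A1 and COL3A1 were lower than parental in every TalaR-DF library, and LUM and PDGFRA in every resistant library. Of 12 leukocyte markers, 8 were at 0 throughout, PTPRC was at most 1.79 log2 CPM in a TalaR-M library and 0 in parental libraries, and the sum, mostly CD74, was 272 to 320, 528 to 773 and 99.8 to 122.7 CPM. Endothelial markers, 4 of 10 at 0 throughout, summed to 31.0 to 33.2 CPM in parental, 5.91 to 10.3 in TalaR-M and 2.92 to 4.29 in TalaR-DF libraries, and basal markers, 6 of 10 at 0, to at most 6.42 CPM in any library. The endothelial and basal sums were lower than parental in every resistant library, and the ductal, fibroblast and leukocyte sums in every TalaR-DF library. The ductal and leukocyte sums were higher than parental in every TalaR-M library. The fibroblast sum was higher than parental in TalaR-M replicates 1 and 3 and lower in replicate 2. Replicate 2, which stood apart, also held the highest ductal and leukocyte sums. The leukocyte rise was mostly that of CD74, while CD14 and CSF1R were lower than parental in every TalaR-M library. The part of the cell types behind these lists in the result was not tested.

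The choice has thresholds, and genes near them differ little. Nearest inside were PLCL2, with a fall of 2.025 in TalaR-DF cells, SV2A, with a parental mean of 4.06, and ABCG1, with a fall of 2.06 in TalaR-M replicates 1 and 3. Nearest outside were POPDC3, with falls of 1.99 and 2.46, TMEM91, with 3.25 and 1.97, and the integrin gene ITGA7, with 1.97 and 2.70.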

How the data were processed

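RNA of 3 groups of PSN1 cells, 3 libraries each, was sequenced by the authors from stranded poly(A) libraries as paired reads of 150 bases. In the deposited table each gene has log2 CPM per library. The values themselves show this unit, a small prior count (about 1 read) and that anything under 0 was replaced by 0. The processing notes name hg38. The aligner, counter and annotation are not given in the sources used here. Column names speak of maintenance and withdrawal, which were read as TalaR-M and as TalaR-DF. Other samples of the series were not analysed here.

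Values under 50 CPM gave whole reads in every library (tolerance 0.01), which served for depth only. Genes above 0 in at least 3 libraries were tested with limma 3.58.1 in R 4.3.3, with all 9 libraries in 1 fit and a mean-variance trend, and no pseudocount was added. The test was tried on simulated data first. Since 3 against 3 libraries cannot reach an exact permutation p under 0.1, no single-gene permutation test was run.

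The members and gene lists were chosen with earlier results of these data known. Genes named are the 10 members with the highest parental mean, the 2 largest mean falls of each list with at least 2 members, the 5 largest called differences without overlap in each direction, the 3 genes nearest each side of the threshold, and members next to each other in the order of genes tested. All other names, the roles and the partner genes were chosen after values were seen. Replicate numbers did not pair libraries (correlations of deviations from -0.417 to 0.217). Promoters came from RefSeq GRCh38.p14, and positions and transcripts from GENCODE 44, which matched all 84 members, older symbols included. Apart from CDH1, levels of single ductal markers are not reported here. Figures were drawn with matplotlib 3.10.9. Alternatives were other pseudocounts, filters, scaling, thresholds and fits, a replicate block, and leaving out each library.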

Additional observations from a re-analysis of the deposited data

How the results depend on the processing

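An added pseudocount of 8 CPM moved 3 results most: 39 genes then met the choice in place of 84, 45 of the 84 members were at least 4-fold lower in TalaR-M replicate 2 in place of 73, and 7 members were called between TalaR-M and TalaR-DF cells (1 higher and 6 lower in TalaR-M) in place of 24. This pseudocount shrinks differences of low genes by construction, and with it 260 of all genes tested were called in place of 864. The median difference of the members between TalaR-M and TalaR-DF cells was 0.072 after median-ratio scaling, and between -0.050 and 0 when each library was left out in turn, with -0.050 without TalaR-M replicate 2. Under all other alternatives the number of members called stayed between 19 and 28, the number of genes meeting the choice between 83 and 91, and the number 4-fold lower in TalaR-M replicate 2 between 70 and 78. Calls over all genes in each fit then lay between 484 and 1502. A replicate block gave 23 members called, 4 higher and 19 lower in TalaR-M, with 750 called over all genes tested. Same-numbered libraries did not deviate together, so the block has no basis in the design. Median-ratio scaling gave 9 members higher and 17 lower in TalaR-M in place of 5 and 19, and the fit of the resistant libraries alone 2 and 17. Over all genes tested, 1015 were called after that scaling and 484 in that fit. For the 5 largest called differences in each direction, the only named members run under these alternatives, 154 values stayed on their side of the threshold, 26 no longer passed it and 0 changed direction. ABCG1 and PHLDA3 were not called in the fit of the resistant libraries alone, nor SUSD5 there or with the replicate block. Amounts under 1 CPM, 6.97 to 14.54 reads, cannot be told from 0, which limits every fall that ends at 0.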
